A study of Homo sapiens with 8 samples.

Results

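The genes of WNT signalling at the cell surface were followed by RNA-Seq through nickel exposure and after its end in BEAS-2B, an immortalised cell line made from the bronchial epithelium of a human. The genes were picked by a rule on their names, which was set with earlier results of these data known. They comprise the WNT ligand genes, the Frizzled receptor genes (FZD), the co-receptor genes LRP5, LRP6, ROR1 and ROR2, the secreted antagonist genes DKK1 to DKK4, SFRP1, SFRP2, SFRP4, SFRP5 and WIF1, and the feedback inhibitor genes AXIN2, RNF43 and ZNRF3. In all, 45 of the 25411 listed genes met the rule (19 ligands, 10 Frizzled receptors, 4 co-receptors, 9 secreted antagonists and 3 feedback inhibitors). The 8 libraries formed 4 groups of 2 biological replicates, and each group came from the same line. Untreated cells (UT) received no nickel, whereas Ni-E cells were kept for 6 weeks in 100 µM NiCl2, a soluble nickel salt. Ni-W cells received the same exposure, were then grown from isolated single cells in medium without nickel, and had been free of nickel for more than 6 months. A single homogeneous population, picked at random, was examined, so that Ni-W represents 1 clone. HCl3 cells carried the same treatment description as Ni-W, but the labels gave neither their time without nickel nor how they were related to Ni-W. Cloning and past exposure cannot be told apart in Ni-W or HCl3. An experiment number was given in the labels for Ni-E (2) and for HCl3 (3 and 4) but not for UT or Ni-W, so that experiment and group cannot be told apart.

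WNT proteins are secreted, lipid-modified ligands that bind Frizzled receptors. Together with LRP5 or LRP6, Frizzled receptors protect β-catenin from degradation and allow it to activate genes through the TCF/LEF factors, whereas together with ROR1 or ROR2 they act on cell polarity and movement without β-catenin. SFRP proteins and WIF1 bind the ligands, DKK1, DKK2 and DKK4 bind the LRP co-receptors, and the membrane ligases RNF43 and ZNRF3 remove Frizzled from the cell surface. In the lung, WNT signals guide branching during development and the repair of the airway epithelium.

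Library totals ranged from 26383920 to 45692298 reads, and the replicates of each group differed by more than sampling noise, with no library a copy of another. A count of 3 reads, taken as the limit of detection, was between 6.57e-06 and 1.14e-05% of a library. The keratins KRT8, KRT18 and KRT7 stood between 144 and 481 RPKM (reads scaled to the length of the gene and to the size of the library) in the 8 libraries, while the epithelial cadherin CDH1 stood between 0.01 and 0.11 and EPCAM between 0.95 and 1.79. A further keratin, KRT19, stood at most at 0.02 RPKM in UT and Ni-E, at 0.78 and 0.53 in Ni-W, and at 0.68 and 0.77 in HCl3. The summed level of the 6 epithelial markers was 602 to 636 RPKM in UT, 579 to 794 in Ni-E, 947 to 972 in Ni-W and 934.5 to 996 in HCl3. Of 7 fibroblast markers, DCN was listed at 0 in every library, and COL1A1 and PDGFRB held most of a summed level of 359 to 414 RPKM in UT, 189 to 354 in Ni-E, 243 to 269 in Ni-W and 461 to 484 in HCl3. Of the leukocyte markers, CD3E was listed at 0 in every library, PTPRC stood at most at 0.04 RPKM and CD68 between 14.3 and 21.8. The summed level of the 4 endothelial markers was at most 0.14 RPKM, and that of FOXJ1 and SCGB1A1, which mark ciliated and secretory airway cells, at most 0.08. The part of these marker levels in the results on WNT genes was not tested. In such bulk RNA, fewer cells that express a gene and less RNA per cell cannot be told apart.

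Of the 45 genes, 24 had more than 3 reads in every library, and together the 45 took 0.112 to 0.160% of the reads. No read was counted in any library for 11 genes, which were the ligand genes WNT2, WNT8A, WNT9B and WNT16, the receptor gene FZD10, and the antagonist genes DKK2, DKK4, SFRP2, SFRP4, SFRP5 and WIF1. RNF43, WNT7A and WNT8B never exceeded 3 reads. The antagonist DKK1 dominated the set, since 43.4 to 63.4% of the reads of the 45 genes belonged to it. In UT, DKK1 (469 ± 48.8 RPKM, mean ± SD, n = 2) was followed by DKK3 (37.7 ± 1.09), FZD6 (19.6 ± 0.332), FZD2 (17.7 ± 0.205), LRP5 (10.7 ± 1.34) and WNT5B (8.41 ± 1.32). The means of LRP5 and WNT5B, unlike those of the pairs before them, were apart by less than the sum of their SDs.

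**Figure D1:**
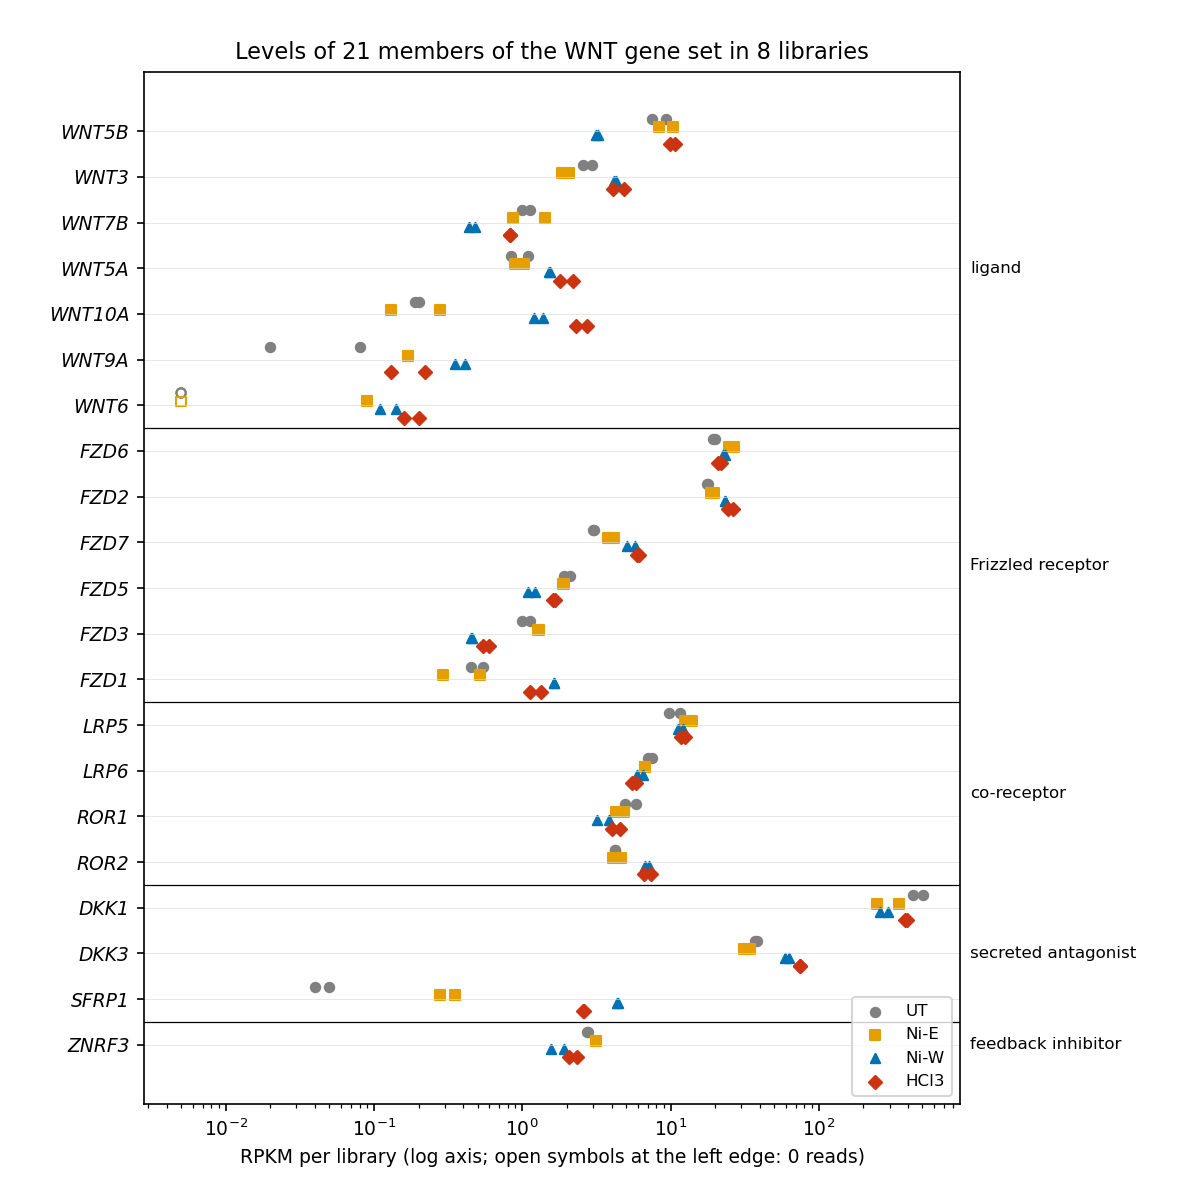
RPKM in each of the 8 libraries (x axis, logarithmic) for the 21 genes that were differentially expressed in at least 1 comparison or reached a mean of 1 RPKM in a group, arranged by role. Each point is a library and open symbols at the left edge have 0 reads. DKK1 stands far to the right, and SFRP1 moves from 0.05 and 0.04 RPKM in UT to 2.57 and 2.61 in HCl3 and 4.41 and 4.33 in Ni-W.

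Differential expression was called where the adjusted P value was below 0.05 and the change reached 1.5-fold. SFRP1 was higher and DKK1 lower in Ni-E, during exposure, than in UT, but both calls were lost when single libraries were left out. Against UT, SFRP1 rose 91.4-fold in Ni-W and 53.5-fold in HCl3, the ligand WNT10A rose 6.48-fold and 12.6-fold, and the receptor FZD1 rose 3.20-fold and 2.38-fold, while the receptor FZD3 fell in both. The ligand WNT5B fell 2.69-fold in Ni-W and did not pass in HCl3. The Ni-W and HCl3 comparisons share the UT libraries, so their values are given side by side and their likeness is not counted as a result.

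In Ni-E against UT, 2 of the 45 genes were called (26 passed the filter on low counts), beside 5.8% of the 14478 genes tested. The gene that rose, SFRP1, stands beside 3.75% of all genes that were higher in Ni-E, and the gene that fell, DKK1, beside 2.05% that were lower. Over the 26, the median log2 fold change was 0.03, and that of all genes tested was -0.00. In Ni-W against UT, 16 of the 45 were called (30 passed the filter), beside 15.7% of all genes tested. DKK3, FZD1, FZD7, ROR2, SFRP1, WNT10A, WNT5A, WNT6 and WNT9A were the 9 that rose, beside 10.9% of all genes. DKK1, FZD3, FZD5, ROR1, WNT5B, WNT7B and ZNRF3 were the 7 that fell, beside 4.83% of all genes. The median log2 fold change was 0.30 over the 30 genes and 0.01 over all genes tested. In HCl3 against UT, 10 of the 45 were called (31 passed the filter), beside 14.8% of all genes. The 9 that rose were DKK3, FZD1, FZD7, ROR2, SFRP1, WNT10A, WNT3, WNT5A and WNT6, beside 11.1% of all genes, and FZD3 alone fell, beside 3.74%. The median was 0.47 over the 31 genes and 0.01 over all genes. Some genes passed the filter only through the group in which they were high, so these counts and medians describe the set and are no test of it.

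Against Ni-E, 12 of the 45 genes were called in Ni-W (30 passed the filter), beside 20.5% of all genes tested. The 7 that were higher were DKK3, FZD1, ROR2, SFRP1, WNT10A, WNT3 and WNT5A, beside 11.7% of all genes, and the 5 that were lower were FZD3, FZD5, WNT5B, WNT7B and ZNRF3, beside 8.81%. In HCl3 against Ni-E, 8 genes were called (32 passed the filter), beside 17.1% of all genes. DKK3, FZD1, ROR2, SFRP1, WNT10A, WNT3 and WNT5A, 7 genes, were higher, beside 10.4% of all genes, and FZD3 was lower, beside 6.78%. These comparisons share the Ni-E libraries. The median log2 fold change of the genes tested was 0.20 in Ni-W and 0.38 in HCl3, where all genes tested gave 0.02 and 0.01. Between HCl3 and Ni-W, compared directly, 4 genes were called (30 passed the filter), beside 4.77% of all genes. WNT10A, WNT5B and WNT7B were the 3 that were higher in HCl3, beside 3.1% of all genes, and SFRP1 was lower, beside 1.66%. The median was 0.19 over the 30 genes and -0.00 over all genes.

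**Figure D2:**
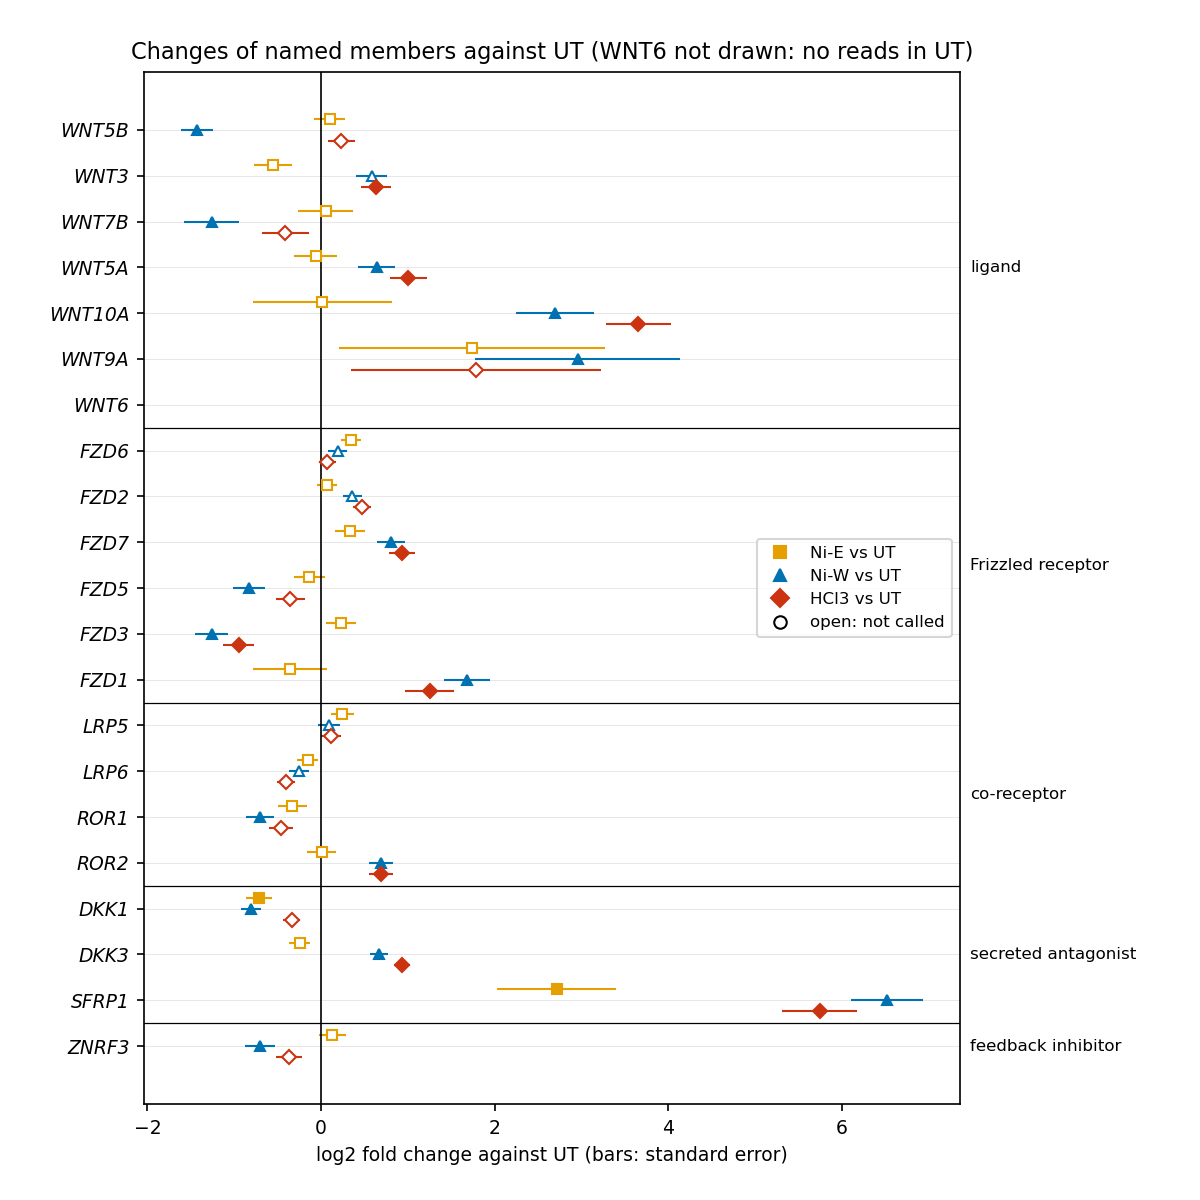
Log2 fold change against UT (x axis) with its standard error for 20 of the 21 genes, in Ni-E, Ni-W and HCl3. Filled symbols were differentially expressed and open symbols were not. Most Ni-E symbols are open and lie near 0, and SFRP1, WNT10A and FZD1 lie to the right in Ni-W and HCl3.

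Among the ligands, the make-up of the WNT RNA differed between the groups. The ligand levels summed to 13.3 and 14.7 RPKM in the UT libraries, to 15.8 and 13.8 in Ni-E, to 12.1 and 11.9 in Ni-W, and to 20.6 and 22.1 in HCl3. Both HCl3 libraries were above all others, and both Ni-W libraries were below all others. WNT5B, which signals chiefly without β-catenin, was the most abundant ligand in each UT, Ni-E and HCl3 library, and WNT3, a ligand of the β-catenin route, was the most abundant in both Ni-W libraries. The share of WNT5B in the ligand RPKM stood at 56.4 and 63.6% in UT, at 65.7 and 60.2% in Ni-E, at 26.8 and 26.5% in Ni-W, and at 48.3 and 48.4% in HCl3. WNT10A made up 0.825 to 2.02% in UT and Ni-E and 9.93 to 12.4% in Ni-W and HCl3, with no overlap between these ranges.

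**Figure D3:**
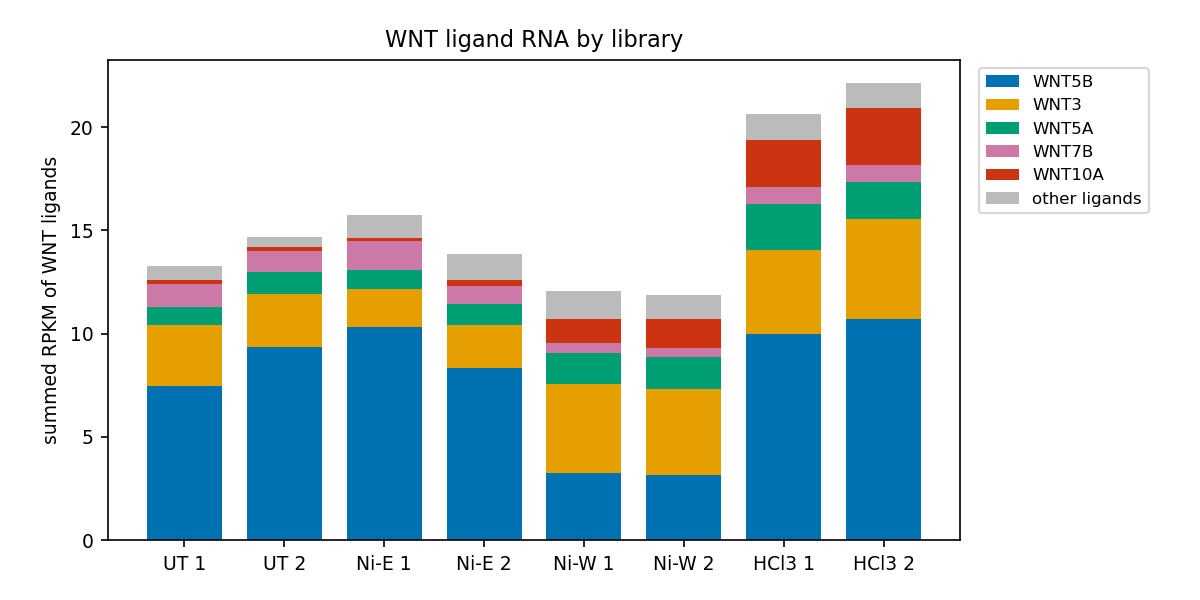
Summed RPKM of the WNT ligand genes in each library (y axis, from 0), stacked by ligand. The WNT5B segment is short in both Ni-W bars, and the WNT10A segment is visible as a broad band only in the Ni-W and HCl3 bars.

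WNT10A (hg19 chromosome 2, 219745255 to 219758651, plus strand) encodes a ligand of the β-catenin route that is needed for teeth, hair and other skin appendages. Its level stood at 0.20 and 0.19 RPKM in UT, at 0.13 and 0.28 in Ni-E, at 1.20 and 1.37 in Ni-W, and at 2.29 and 2.75 in HCl3. Ni-E overlapped UT, every Ni-W library was above these 4, and every HCl3 library was above Ni-W. The log2 fold change was 0.02 ± 0.80 (SE) in Ni-E (adjusted P = 0.994), 2.70 ± 0.45 in Ni-W (adjusted P = 3.85e-08) and 3.65 ± 0.38 in HCl3 (adjusted P = 2.26e-20) against UT. Against Ni-E it was 2.67 ± 0.46 in Ni-W (adjusted P = 9.57e-08) and 3.63 ± 0.38 in HCl3 (adjusted P = 2.32e-19).

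WNT6 (219724546 to 219738954), a ligand gene next to WNT10A, lies on the same strand with a gap of 6300 bases. It was counted at 0 reads in both UT libraries, at 0 and 6 in Ni-E, at 10 and 8 in Ni-W, and at 14 and 12 in HCl3. UT and Ni-E overlapped at 0, and both Ni-W and HCl3 libraries were above them. In RPKM, WNT6 stood at 0 and 0.09 in Ni-E, at 0.11 and 0.14 in Ni-W, and at 0.20 and 0.16 in HCl3. Against Ni-E, it was not called by DESeq2 in Ni-W (adjusted P = 0.498) or HCl3 (adjusted P = 0.267). Relative to 3 reads per UT library, WNT6 was at least 2.46-fold higher in Ni-W (adjusted P = 0.0384) and at least 3.58-fold higher in HCl3 (adjusted P = 0.00905). Both calls rested on few reads. In Ni-W, the call was lost without UT replicate 1 (adjusted P = 0.199) or UT replicate 2 (adjusted P = 0.136), and in HCl3 without UT replicate 1 (adjusted P = 0.0879) or 2 (adjusted P = 0.0547). With the replicate block, which pairs libraries by the repeat suffix of their labels, both calls were lost as well (adjusted P = 0.113 in Ni-W and 0.0678 in HCl3). Both were also lost with the block once trends with GC content and gene length were removed. Of 13 alternatives, WNT6 was tested in 9 in Ni-W and in 10 in HCl3, and the others gave no adjusted P value. The median log2 fold change of 50 other expressed genes within 5 Mb of WNT6 was -0.08 in Ni-W and 0.30 in HCl3.

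The 250 bases before the RefSeq start of each gene (build GRCh38.p14, plus strand, chr2:218859555-218859804 for WNT6 and chr2:218880602-218880851 for WNT10A) are shown because both neighbours were called higher in Ni-W and in HCl3. Capitals mark CpG dinucleotides, the sites of DNA methylation, which was not measured in these libraries.
WNT6: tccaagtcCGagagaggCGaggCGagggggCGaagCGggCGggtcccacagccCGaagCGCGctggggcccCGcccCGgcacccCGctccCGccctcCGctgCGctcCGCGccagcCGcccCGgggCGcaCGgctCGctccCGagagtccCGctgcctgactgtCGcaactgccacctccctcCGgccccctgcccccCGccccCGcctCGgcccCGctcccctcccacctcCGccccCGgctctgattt
WNT10A: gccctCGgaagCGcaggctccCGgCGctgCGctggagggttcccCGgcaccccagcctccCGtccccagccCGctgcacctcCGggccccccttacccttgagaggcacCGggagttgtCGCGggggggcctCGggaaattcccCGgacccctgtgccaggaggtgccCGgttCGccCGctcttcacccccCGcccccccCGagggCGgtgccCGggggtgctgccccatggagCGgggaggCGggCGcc
The WNT6 stretch held 32 CpG at a GC content of 79.2%, and the WNT10A stretch held 24 at 77.6%. Counted over the 300-base window of the RefSeq table, which runs 50 bases past the start, WNT6 held 37 CpG and WNT10A 30, where the median over 35116 promoters was 14 and the median over 34 promoters of 30 of the 45 genes was 29.

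WNT5B (chromosome 12, 1738412 to 1756378) and WNT7B (chromosome 22, 46316248 to 46373008) were the ligands that fell in Ni-W. WNT5B stood at 7.48 and 9.34 RPKM in UT, at 10.3 and 8.33 in Ni-E, at 3.24 and 3.15 in Ni-W, and at 9.98 and 10.7 in HCl3. The Ni-W libraries were alone at the low end, and the other 3 groups lay close together. Its log2 fold change in Ni-W was -1.43 ± 0.18 against UT (adjusted P = 3.95e-13) and -1.54 ± 0.18 against Ni-E (adjusted P = 5.02e-16). In HCl3 it was 0.23 ± 0.15 against UT (adjusted P = 0.253). WNT7B, a ligand made by the lung epithelium during development, stood at 1.13 and 1.00 RPKM in UT, at 1.43 and 0.86 in Ni-E, at 0.44 and 0.48 in Ni-W, and at 0.83 in both HCl3 libraries. Ni-W was again lowest, and HCl3 was below UT and Ni-E without passing the test against UT (log2 fold change -0.41 ± 0.27, adjusted P = 0.261). WNT7B fell in Ni-W by 1.26 ± 0.31 on the log2 scale against UT (adjusted P = 0.000441), a call that was lost without UT replicate 1 (adjusted P = 0.0704) or Ni-W replicate 1 (adjusted P = 0.107). Against Ni-E it was -1.33 ± 0.35 (adjusted P = 0.000587), which was lost without Ni-E replicate 1 (adjusted P = 0.183) or Ni-W replicate 1 (adjusted P = 0.0708).

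WNT3, WNT5A and WNT9A were the other ligands that rose. WNT3 (chromosome 17, 44839872 to 44896126) stood at 2.95 and 2.56 RPKM in UT, at 1.84 and 2.08 in Ni-E, at 4.31 and 4.17 in Ni-W, and at 4.07 and 4.82 in HCl3. Ni-E was lowest, UT lay between, and Ni-W and HCl3 were highest and overlapped each other. The log2 fold change against Ni-E was 1.12 ± 0.18 in Ni-W (adjusted P = 1.40e-08) and 1.17 ± 0.18 in HCl3 (adjusted P = 2.63e-09). Against UT it was 0.58 ± 0.18 in Ni-W (adjusted P = 0.00555), just under 1.5-fold, and 0.63 ± 0.18 in HCl3 (adjusted P = 0.00209). The HCl3 call against UT was lost without HCl3 replicate 1 (adjusted P = 0.0683) or HCl3 replicate 2 (adjusted P = 0.322), with the replicate block (adjusted P = 0.0553), without UT replicate 2, when the log2 fold change was 0.53, and once trends with GC content and gene length were removed, when it was 0.46.

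WNT5A (chromosome 3, 55499743 to 55521670), the best studied ligand of the route without β-catenin, stood at 0.84 and 1.09 RPKM in UT, at 0.89 and 1.02 in Ni-E, at 1.53 and 1.52 in Ni-W, and at 2.20 and 1.79 in HCl3. UT and Ni-E overlapped, Ni-W was above both, and HCl3 was above Ni-W. Its log2 fold change against UT was 0.64 ± 0.22 in Ni-W (adjusted P = 0.0141) and 1.01 ± 0.21 in HCl3 (adjusted P = 1.47e-05). Against Ni-E it was 0.69 ± 0.21 in Ni-W (adjusted P = 0.00342) and 1.05 ± 0.20 in HCl3 (adjusted P = 9.92e-07). The Ni-W call against UT was lost without UT replicate 1 (adjusted P = 0.277), Ni-W replicate 1 (adjusted P = 0.279) or Ni-W replicate 2 (adjusted P = 0.249), and at 0.53 was under 1.5-fold without the GC and length trends. The Ni-W call against Ni-E was lost without Ni-E replicate 1 (adjusted P = 0.0999), Ni-W replicate 1 (adjusted P = 0.155) or Ni-W replicate 2 (adjusted P = 0.139), with the replicate block (adjusted P = 0.0510) and without the GC and length trends, when the log2 fold change was 0.47. The HCl3 call against UT was lost without HCl3 replicate 1 (adjusted P = 0.0955). For other genes within 5 Mb of WNT5A, the median against UT was -0.12 in Ni-W and -0.44 in HCl3 on the log2 scale.

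In RPKM, WNT5B exceeded WNT5A 8.90-fold and 8.57-fold in the UT libraries, 11.6-fold and 8.17-fold in Ni-E, 2.12-fold and 2.07-fold in Ni-W, and 4.54-fold and 5.98-fold in HCl3. The ratio was therefore lower in each Ni-W library than in any other. WNT9A (chromosome 1, 228109165 to 228135676) was counted at 1 and 3 reads in UT, at 8 in both Ni-E libraries, at 26 and 15 in Ni-W, and at 11 and 7 in HCl3. Its share of the reads in Ni-W was 8.52 times that in UT (41 against 4 reads, 95% exact interval 3.09 to 32.7, counting error only). The call in Ni-W (adjusted P = 0.0410) was lost without any 1 of the 4 libraries, with adjusted P values of 0.316 without UT replicate 1, 0.0840 without UT replicate 2, 0.460 without Ni-W replicate 1 and 0.332 without Ni-W replicate 2, and with the replicate block (adjusted P = 0.106).

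Of the 10 Frizzled receptors, FZD2 and FZD6 together held 80.5 to 83.8% of the Frizzled RPKM in every library. FZD2 (chromosome 17, 42634812 to 42638630) stood at 17.9 and 17.6 RPKM in UT, at 18.9 and 19.7 in Ni-E, at 23.2 and 23.4 in Ni-W, and at 24.4 and 26.6 in HCl3. Its change passed the adjusted P value but was under 1.5-fold in Ni-W (0.36 ± 0.11 on the log2 scale, adjusted P = 0.00401) and HCl3 (0.47 ± 0.10, adjusted P = 4.56e-05). FZD6 (chromosome 8, 104311059 to 104345094) stood at 19.4 and 19.8 RPKM in UT, at 24.8 and 26.9 in Ni-E, at 23.3 and 22.7 in Ni-W, and at 22.0 and 20.9 in HCl3. Ni-E was highest, at 0.34 ± 0.11 on the log2 scale against UT (adjusted P = 0.0310), again under 1.5-fold.

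FZD1 and FZD7 were the receptors that rose. FZD1 (chromosome 7, 90893783 to 90898132) stood at 0.54 and 0.45 RPKM in UT, at 0.29 and 0.52 in Ni-E, at 1.64 and 1.63 in Ni-W, and at 1.33 and 1.13 in HCl3. UT and Ni-E overlapped, and each Ni-W and HCl3 library was above both. The log2 fold change against UT was 1.68 ± 0.27 in Ni-W (adjusted P = 7.48e-09) and 1.25 ± 0.28 in HCl3 (adjusted P = 9.32e-05), and against Ni-E it was 2.02 ± 0.30 (adjusted P = 4.00e-10) and 1.60 ± 0.33 (adjusted P = 7.81e-06). The HCl3 call against UT was lost without HCl3 replicate 1 (adjusted P = 0.132). For 36 other expressed genes within 5 Mb, the median was -0.08 in Ni-W and -0.12 in HCl3.

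FZD7 (chromosome 2, 202899310 to 202903160), a receptor that relays β-catenin signals in many epithelia, stood at 3.05 and 3.00 RPKM in UT, at 3.81 and 4.14 in Ni-E, at 5.08 and 5.79 in Ni-W, and at 5.91 and 6.10 in HCl3. The groups did not overlap and stood in the order UT, Ni-E, Ni-W and HCl3. By DESeq2, neither the step from UT to Ni-E (adjusted P = 0.226) nor that from Ni-W to HCl3 (adjusted P = 0.571) passed. Against UT, the log2 fold change was 0.81 ± 0.16 in Ni-W (adjusted P = 7.84e-06) and 0.93 ± 0.15 in HCl3 (adjusted P = 4.30e-09), beside a median of 0.37 and 0.34 over 49 other expressed genes within 5 Mb. Against Ni-E the change was under 1.5-fold in Ni-W (0.46 ± 0.15, adjusted P = 0.00921) and in HCl3 (0.58 ± 0.14, adjusted P = 0.000122). The median of the nearby genes against Ni-E was 0.48 in Ni-W and in HCl3.

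FZD3 and FZD5 were the receptors that fell. FZD3 (chromosome 8, 28351722 to 28431785), known for its part in axon guidance and planar polarity, stood at 0.99 and 1.12 RPKM in UT, at 1.28 and 1.29 in Ni-E, at 0.45 and 0.46 in Ni-W, and at 0.60 and 0.54 in HCl3. Each Ni-W and HCl3 library was below each UT and Ni-E library. The log2 fold change against UT was -1.26 ± 0.19 in Ni-W (adjusted P = 6.52e-10) and -0.95 ± 0.18 in HCl3 (adjusted P = 1.18e-06), and against Ni-E it was -1.50 ± 0.17 (adjusted P = 1.78e-16) and -1.19 ± 0.16 (adjusted P = 6.48e-12). The microRNA gene MIR4288 lies within FZD3 on the other strand, and whether strand was used in counting was not stated. FZD5 (chromosome 2, 208627310 to 208634143) stood at 1.91 and 2.09 RPKM in UT, at 1.87 and 1.91 in Ni-E, at 1.09 and 1.22 in Ni-W, and at 1.65 and 1.60 in HCl3. Its fall in Ni-W was -0.83 ± 0.19 in log2 units against UT (adjusted P = 9.30e-05) and -0.70 ± 0.19 against Ni-E (adjusted P = 0.000671). Without Ni-W replicate 1 both calls were lost (adjusted P = 0.0825 against UT and 0.114 against Ni-E). In HCl3 the value against UT was -0.35 ± 0.17 (adjusted P = 0.0956).

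The LRP co-receptors of the β-catenin route were not called in any comparison. LRP5 (chromosome 11, 68080077 to 68216743) stood at 11.7 and 9.77 RPKM in UT, at 12.6 and 13.8 in Ni-E, at 11.2 and 12.2 in Ni-W, and at 12.4 and 11.7 in HCl3, and UT overlapped Ni-W and lay below HCl3 and Ni-E. LRP6 (chromosome 12, 12268961 to 12419811) stood at 7.00 and 7.45 RPKM in UT, at 6.71 and 6.77 in Ni-E, at 5.95 and 6.49 in Ni-W, and at 5.83 and 5.49 in HCl3. Its log2 fold change of -0.41 ± 0.11 in HCl3 against UT had an adjusted P value of 0.000778 and was under 1.5-fold.

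The ROR co-receptors, which bind WNT5A, moved in opposite directions in Ni-W. ROR2 (chromosome 9, 94484878 to 94712444) stood at 4.20 and 4.19 RPKM in UT, at 4.10 and 4.66 in Ni-E, at 6.70 and 7.19 in Ni-W, and at 6.61 and 7.39 in HCl3, with Ni-W and HCl3 above UT and Ni-E. The log2 fold change against UT was 0.69 ± 0.14 in Ni-W (adjusted P = 1.40e-05) and in HCl3 (adjusted P = 7.09e-06), and against Ni-E it was 0.67 ± 0.14 (adjusted P = 1.08e-05) and 0.67 ± 0.13 (adjusted P = 5.84e-06). Other expressed genes within 5 Mb of ROR2 had medians of 0.37 and 0.25 against UT. Without the GC and length trends, the change against UT was 0.52 in Ni-W and 0.42 in HCl3, under 1.5-fold. In HCl3 against Ni-E it was 0.52. Removing these trends shifted the log2 fold changes of all genes tested by a median of -0.09 in Ni-W and -0.08 in HCl3 against UT. Without HCl3 replicate 2 the call against UT was lost (adjusted P = 0.0730), and that against Ni-E was under 1.5-fold, at 0.58.

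ROR1 (chromosome 1, 64239690 to 64647179) stood at 4.91 and 5.83 RPKM in UT, at 4.87 and 4.31 in Ni-E, at 3.18 and 3.85 in Ni-W, and at 4.59 and 4.03 in HCl3. In RPKM, Ni-W was lowest, and the other groups did not overlap it. Its log2 fold change in Ni-W against UT was -0.70 ± 0.16 (adjusted P = 0.000152), a call that was lost without Ni-W replicate 1 (adjusted P = 0.126), and changed by less than 1.5-fold in HCl3 (-0.46 ± 0.14, adjusted P = 0.00463). An antisense gene, ROR1-AS1, overlaps ROR1. The RPKM ratio of ROR2 to ROR1 stood at 0.855 and 0.719 in UT, at 0.842 and 1.08 in Ni-E, at 2.11 and 1.87 in Ni-W, and at 1.44 and 1.83 in HCl3, above 1 in every Ni-W and HCl3 library and in Ni-E replicate 2.

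SFRP1 showed the largest log2 fold change of the set in Ni-W against UT. It encodes a secreted protein with a Frizzled-like domain that binds WNT ligands. The gene (chromosome 8, 41119476 to 41166990, minus strand) was counted at 10 and 5 reads in UT, at 48 and 60 in Ni-E, at 1014 and 674 in Ni-W, and at 473 and 501 in HCl3. In RPKM it stood at 0.05 and 0.04 in UT, at 0.28 and 0.35 in Ni-E, at 4.41 and 4.33 in Ni-W, and at 2.57 and 2.61 in HCl3. The 4 groups did not overlap. The log2 fold change against UT was 6.51 ± 0.42 in Ni-W (adjusted P = 9.78e-53) and 5.74 ± 0.43 in HCl3 (adjusted P = 3.16e-38). Against Ni-E it was 3.80 ± 0.22 (adjusted P = 9.42e-63) and 3.03 ± 0.25 (adjusted P = 2.77e-32). The median over 38 other expressed genes within 5 Mb was -0.08 in Ni-W and -0.06 in HCl3. In Ni-E, SFRP1 was 6.56-fold above UT (log2 fold change 2.71 ± 0.68, adjusted P = 0.00172), and this call was lost without UT replicate 1 (adjusted P = 0.0596), UT replicate 2 (adjusted P = 0.103), Ni-E replicate 1 (adjusted P = 0.142) or Ni-E replicate 2 (adjusted P = 0.247), and with the replicate block (adjusted P = 0.0514).

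DKK1 and DKK3 moved apart. DKK1 (chromosome 10, 54074041 to 54077417) stood at 435 and 504 RPKM in UT, at 348 and 247 in Ni-E, at 258 and 291 in Ni-W, and at 394 and 379 in HCl3. Each UT library was above all others, and Ni-E and Ni-W overlapped. It fell by 0.71 ± 0.15 on the log2 scale in Ni-E (adjusted P = 0.000110) and by 0.81 ± 0.11 in Ni-W (adjusted P = 2.40e-11) against UT, and by 0.34 ± 0.10 in HCl3 (adjusted P = 0.00304), under 1.5-fold. The Ni-E call was lost without UT replicate 1 (adjusted P = 0.305), UT replicate 2 (adjusted P = 0.707) or Ni-E replicate 2 (adjusted P = 0.0647), whereas the Ni-W call held without any 1 library.

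DKK3 (chromosome 11, 11984543 to 12030917), a family member whose action on WNT signals is less settled than that of its relatives, stood at 37.0 and 38.5 RPKM in UT, at 34.4 and 31.1 in Ni-E, at 59.4 and 63.1 in Ni-W, and at 74.3 and 74.1 in HCl3. HCl3 was highest, then Ni-W, and neither overlapped UT or Ni-E. The log2 fold change was 0.66 ± 0.10 in Ni-W (adjusted P = 4.67e-09) and 0.93 ± 0.09 in HCl3 (adjusted P = 7.31e-22) against UT. Against Ni-E it was 0.89 ± 0.10 (adjusted P = 3.50e-16) and 1.16 ± 0.09 (adjusted P = 1.23e-35). Without the GC and length trends the Ni-W values were 0.47 against UT and 0.55 against Ni-E, under 1.5-fold. DKK1 exceeded DKK3 in RPKM 11.8-fold and 13.1-fold in UT, 10.1-fold and 7.94-fold in Ni-E, 4.34-fold and 4.62-fold in Ni-W, and 5.30-fold and 5.11-fold in HCl3, with Ni-W lowest and HCl3 next.

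Among the feedback inhibitors, ZNRF3 (chromosome 22, 29313377 to 29453476) stood at 2.72 and 2.77 RPKM in UT, at 3.13 and 3.12 in Ni-E, at 1.56 and 1.90 in Ni-W, and at 2.35 and 2.06 in HCl3. Ni-W was lowest, HCl3 next, and the groups did not overlap. It fell in Ni-W by 0.70 ± 0.17 on the log2 scale against UT (adjusted P = 0.000276) and by 0.85 ± 0.16 against Ni-E (adjusted P = 1.49e-06), and the call against UT was lost without Ni-W replicate 1 (adjusted P = 0.149). In HCl3 the changes of -0.37 ± 0.15 against UT (adjusted P = 0.0468) and -0.52 ± 0.14 against Ni-E (adjusted P = 0.00149) were under 1.5-fold. An antisense gene, ZNRF3-AS1, overlaps ZNRF3. AXIN2, a direct target of β-catenin signals in most tissues, stood between 0.33 and 0.70 RPKM in the 8 libraries (58 to 129 reads), with log2 fold changes against UT of -0.30 ± 0.36 in Ni-E (adjusted P = 0.692), -0.16 ± 0.33 in Ni-W (adjusted P = 0.776) and -0.33 ± 0.39 in HCl3 (adjusted P = 0.581).

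HCl3 was then compared with Ni-W directly, to ask where groups of the same treatment description differed. WNT5B was 3.17-fold higher in HCl3 (log2 fold change 1.67 ± 0.14, adjusted P = 1.11e-28), and SFRP1 was lower in HCl3 (log2 fold change -0.77 ± 0.13, adjusted P = 4.75e-07). Both calls held without any 1 library. WNT10A was higher in HCl3 (0.96 ± 0.24, adjusted P = 0.000859), but not without Ni-W replicate 1 (adjusted P = 0.0986), HCl3 replicate 1 (adjusted P = 0.0643) or HCl3 replicate 2 (adjusted P = 0.359), nor with the block and without the GC and length trends together. WNT7B was higher in HCl3 (0.85 ± 0.30, adjusted P = 0.0330), and this call was lost without Ni-W replicate 1 (adjusted P = 0.334), Ni-W replicate 2 (adjusted P = 0.173), HCl3 replicate 1 (adjusted P = 0.437) or HCl3 replicate 2 (adjusted P = 0.564), with the replicate block (adjusted P = 0.239) and without the GC and length trends (adjusted P = 0.119). DKK1 (0.48 ± 0.08, adjusted P = 6.25e-08), DKK3 (0.27 ± 0.07, adjusted P = 0.00337) and FZD5 (0.48 ± 0.17, adjusted P = 0.0327) were higher in HCl3 by less than 1.5-fold.

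**Figure D4:**
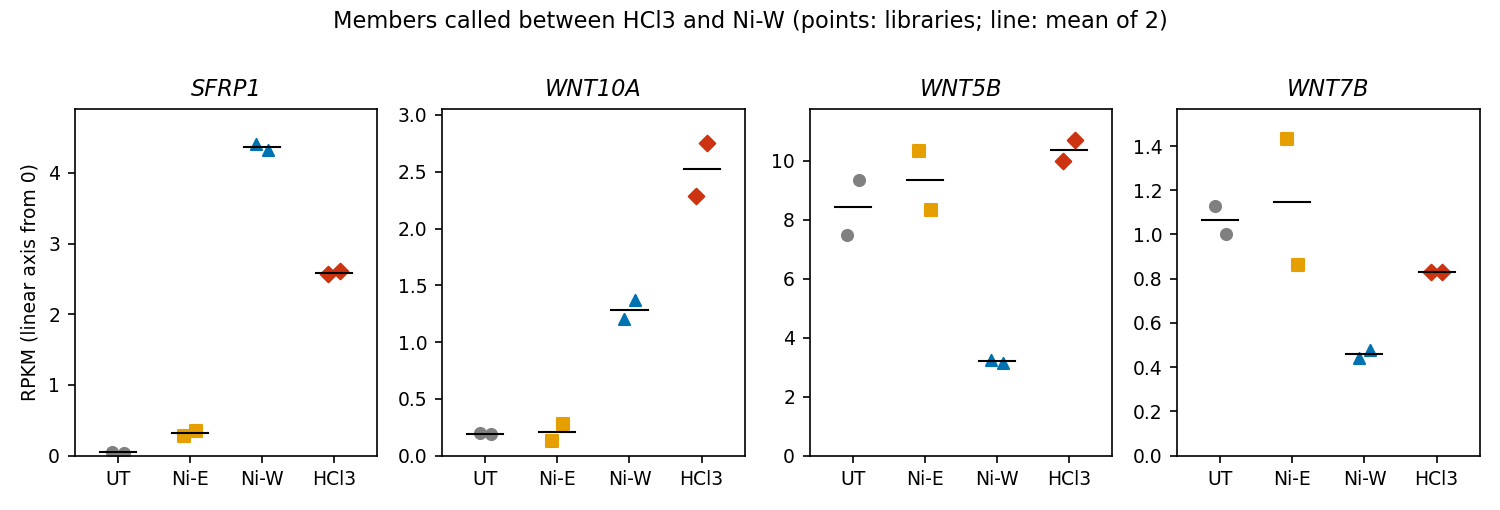
RPKM (y axis, linear from 0) of SFRP1, WNT10A, WNT5B and WNT7B in each library, with the mean of 2 libraries as a line. SFRP1 is highest in Ni-W and WNT10A in HCl3, while WNT5B and WNT7B are lowest in Ni-W.

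The other 24 genes of the set were not called in any comparison and did not reach a mean of 1 RPKM. Besides the 11 without reads and AXIN2, 12 had reads. WNT10B ranged from 0.27 to 0.74 RPKM (19 to 67 reads), FZD4 from 0.49 to 0.76 (137 to 231 reads), FZD9 from 0.45 to 1.02 (35 to 93 reads) and WNT2B from 0.09 to 0.23 (8 to 21 reads). The gene PRSS23 overlaps FZD4 on the other strand. FZD9 was listed at a log2 fold change of 0.88 ± 0.40 in HCl3 against UT (adjusted P = 0.0815). WNT4 reached 19 reads at most, FZD8 10, WNT3A and WNT11 8, WNT1 5, and RNF43, WNT7A and WNT8B 3. Differences of the last 3 genes were not detectable at this depth. Other pairs of neighbouring WNT genes were WNT9A with WNT3A (gap 59046 bases), WNT10B with WNT1 (6594 bases) and WNT3 with WNT9B (32841 bases).

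Genes that act elsewhere in the pathway were examined as 5 lists, and a gene held by 2 lists counts in each. APCDD1, NOTUM and LGR5 stood among both the extracellular genes and the target genes. TCF7 and LEF1 stood in both the β-catenin route and the target genes. As in the set of 45, some genes, such as APCDD1, passed the filter only through the groups in which they were high. The counts and medians therefore describe each list and are no test of it. WNT secretion was represented by PORCN, which attaches the lipid to WNT proteins, and WLS, which carries them to the surface. PORCN rose in Ni-E (0.59 ± 0.19, adjusted P = 0.0195), a call that was lost without any 1 of the 4 libraries (adjusted P = 0.147, 0.349, 0.558 and 0.151), with the replicate block (adjusted P = 0.173) and without the GC and length trends (adjusted P = 0.0653). WLS passed the adjusted P value in Ni-E (0.58 ± 0.12, adjusted P = 3.30e-05) just under 1.5-fold. From Ni-E to Ni-W, both fell, PORCN by 0.63 ± 0.18 (adjusted P = 0.00174) and WLS by 0.75 ± 0.10 (adjusted P = 4.54e-12) on the log2 scale. The PORCN fall was lost without Ni-E replicate 1 (adjusted P = 0.122) or Ni-W replicate 2 (adjusted P = 0.137). WLS stood at 28.8 and 29.6 RPKM in UT, at 47.8 and 44.2 in Ni-E, at 27.3 and 26.6 in Ni-W, and at 31.5 and 32.6 in HCl3, highest in Ni-E and lowest in Ni-W.

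Of 18 other extracellular modulators and receptors, 8 passed the filter in Ni-E against UT and 9 in Ni-W and HCl3. In Ni-E, 3 rose and 0 fell, in Ni-W 4 rose and 1 fell, and in HCl3 4 rose and 0 fell by DESeq2. Over all genes tested, the shares called higher were 3.75, 10.9 and 11.1%, and those called lower 2.05, 4.83 and 3.74%, in the same order of groups. The edgeR test also gave 0 falls in Ni-E and HCl3, and at an unadjusted P value under 0.05 there were 0 and 1. Among those tested, the median log2 fold changes were 0.66, 0.88 and 1.01, beside -0.00, 0.01 and 0.01 over all genes. KREMEN1, a partner of DKK1 that removes LRP6 from the surface, rose in Ni-E (0.71 ± 0.20, adjusted P = 0.00690), Ni-W (0.88 ± 0.19, adjusted P = 4.26e-05) and HCl3 (1.01 ± 0.18, adjusted P = 1.38e-07), from a mean of 1.20 RPKM in UT to 2.42 in HCl3. Its Ni-E call was lost without any 1 of the 4 libraries (adjusted P = 0.139 to 0.289) and with the replicate block (adjusted P = 0.128), and its Ni-W call without Ni-W replicate 2 (adjusted P = 0.0761). PTK7, a co-receptor of planar polarity, rose in Ni-W (0.71 ± 0.11, adjusted P = 2.16e-09) and LGR4, a receptor for the R-spondins that keep ZNRF3 in check, fell (-0.82 ± 0.16, adjusted P = 3.18e-06). Without the GC and length trends the PTK7 change was under 1.5-fold. The R-spondin genes RSPO1, RSPO2, RSPO3 and RSPO4 were counted at 0 reads in every library.

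The other genes of that list were below 1 RPKM or outside the naming rule, and were chosen after their values were seen. APCDD1, a membrane inhibitor of WNT signals, was counted at 0 reads in both UT libraries, at 13 and 20 in Ni-E, at 92 and 63 in Ni-W, and at 33 and 36 in HCl3. Relative to 3 reads per UT library its rise was at least 4.98-fold in Ni-E (adjusted P = 0.00937), 20.8-fold in Ni-W (adjusted P = 7.24e-07) and 9.47-fold in HCl3 (adjusted P = 7.59e-05). Its Ni-E call was lost without UT replicate 2. It was also lost with the replicate block once GC and length trends were removed (adjusted P = 0.0972 by DESeq2). In this comparison APCDD1 was tested in 8 of the 13 alternatives. FRZB, a relative of the SFRP genes, was counted at 5 and 0 reads in UT, at 3 and 5 in Ni-E, at 54 and 31 in Ni-W, and at 50 and 62 in HCl3, and rose in Ni-W (adjusted P = 0.000556) and HCl3 (adjusted P = 1.82e-05). The FRZB call in Ni-W was lost without Ni-W replicate 1 (adjusted P = 0.141) or 2 (adjusted P = 0.0642). KREMEN2 rose in Ni-E (1.73 ± 0.43, adjusted P = 0.00159) and CTHRC1 in HCl3 (2.98 ± 0.96, adjusted P = 0.00849), and each of these calls was lost without any 1 of the 4 libraries (adjusted P = 0.0532 to 0.247 and 0.0679 to 0.284) and with the replicate block (adjusted P = 0.0610 and 0.0833).

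The route from Frizzled to the nucleus through β-catenin was represented by 22 genes, of which 21 passed the filter. By DESeq2, 1 rose in Ni-E, 2 rose in Ni-W and 1 rose in HCl3 against UT, with 0 falling, where 3.75, 10.9 and 11.1% of all genes were higher and 2.05, 4.83 and 3.74% lower. The edgeR test gave 0 falls as well, while 3, 4 and 4 genes were lower at an unadjusted P value under 0.05. The median log2 fold changes were -0.04, -0.01 and -0.09, beside -0.00, 0.01 and 0.01 over all genes. CTNNBIP1, an inhibitor that binds β-catenin, rose in Ni-E (0.74 ± 0.17, adjusted P = 0.000451) and Ni-W (0.67 ± 0.17, adjusted P = 0.000444), BCL9, a co-activator of β-catenin, rose in Ni-W (0.65 ± 0.13, adjusted P = 1.71e-05), and TCF7L1, a mostly repressive member of the TCF/LEF family, rose in HCl3 (0.79 ± 0.21, adjusted P = 0.000941). These calls were lost without single libraries: CTNNBIP1 in Ni-E without UT replicate 2 (adjusted P = 0.0547), Ni-E replicate 1 (0.160) or Ni-E replicate 2 (0.0652) and in Ni-W without Ni-W replicate 1 (0.170), BCL9 without Ni-W replicate 2 (0.0519), and TCF7L1 without HCl3 replicate 1 (0.0675) or 2 (0.251). Without the GC and length trends, the log2 fold changes of CTNNBIP1 (0.55) and BCL9 (0.48) in Ni-W and of TCF7L1 (0.49) in HCl3 were under 1.5-fold.

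Of 10 genes of the planar polarity route, all of which passed the filter, 0 were called in Ni-E by DESeq2 or edgeR (1 at an unadjusted P value under 0.05), while 2 rose and 0 fell in Ni-W, beside 10.9 and 4.83% of all genes, and 1 rose and 0 fell in HCl3, beside 11.1 and 3.74%. The edgeR test gave 0 falls too, and 1 gene was lower in each at an unadjusted P value under 0.05. The median log2 fold changes were -0.00, 0.39 and 0.25, beside -0.00, 0.01 and 0.01 over all genes. VANGL2, a core membrane protein of planar polarity, stood at 1.19 and 0.93 RPKM in UT, at 1.08 and 1.15 in Ni-E, at 6.05 and 6.03 in Ni-W, and at 4.65 and 4.52 in HCl3. UT and Ni-E overlapped, and Ni-W and HCl3 stood far above them. The log2 fold change against UT was 2.47 ± 0.17 in Ni-W (adjusted P = 1.15e-45) and 2.05 ± 0.17 in HCl3 (adjusted P = 1.01e-30), and it held under each alternative tried. PRICKLE1, named after its values were seen, rose in Ni-W with 44 and 28 reads against 6 and 4 in UT (2.54 ± 0.82, adjusted P = 0.00893), and lost the call without any 1 of the 4 libraries (adjusted P = 0.0695 to 0.292) and with the replicate block (adjusted P = 0.0531).

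Of 11 commonly used target genes, 8 passed the filter. In Ni-E 1 rose and 1 fell, in Ni-W 1 rose and 1 fell, and in HCl3 2 rose and 1 fell against UT, beside shares of 3.75, 10.9 and 11.1% higher and 2.05, 4.83 and 3.74% lower among all genes. The median log2 fold changes were 0.54, 0.45 and 0.74, beside -0.00, 0.01 and 0.01 over all genes. MYC, a growth regulator, fell from 42.8 ± 1.51 RPKM in UT (SD, n = 2) to 19.0 ± 1.17 in Ni-W (-1.21 ± 0.11 on the log2 scale, adjusted P = 2.82e-24) and 25.4 ± 1.66 in HCl3 (-0.81 ± 0.10, adjusted P = 3.21e-13). CCND1, which encodes cyclin D1, rose in HCl3 (0.73 ± 0.14, adjusted P = 8.47e-07), a call that was lost in a fit of all 8 libraries (adjusted P = 0.282). The CCND1 change was under 1.5-fold without UT replicate 1, at 0.53, and without the GC and length trends, at 0.56. TNFRSF19, chosen after its values were seen, fell in Ni-E (-1.43 ± 0.23, adjusted P = 3.77e-08). The remaining gene that rose in each group was APCDD1, whose rise is also counted among the extracellular modulators.

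**Figure D5:**
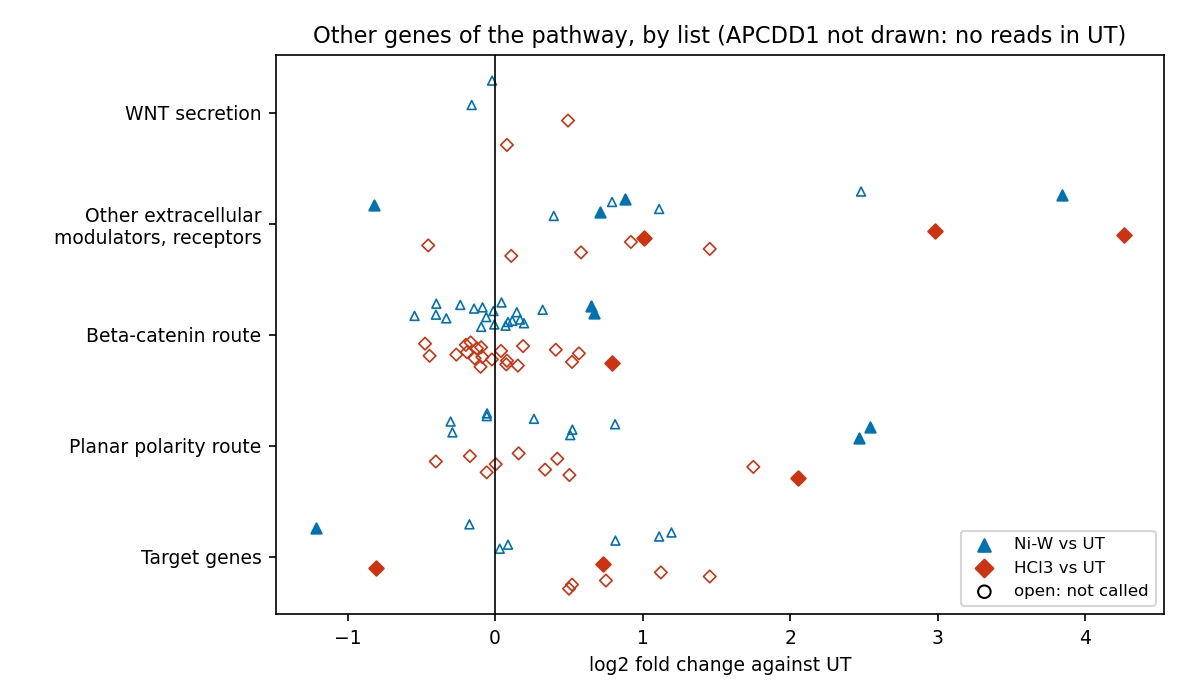
Log2 fold change against UT (x axis) in Ni-W and HCl3 for each gene of the 5 lists that passed the filter on low counts, APCDD1 left out for want of reads in UT, with filled symbols for genes that were differentially expressed. Filled symbols are few in the β-catenin route, while VANGL2 lies above 2 in both comparisons and MYC is the filled symbol on the left among the target genes.

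The RefSeq promoter windows of 30 of the 45 genes were searched on both strands for the TCF/LEF core CTTTGAT and the hypoxia response core ACGTG, neither of which contains the other. CTTTGAT was found in 2.62% of all 35116 windows and in 0 of the 30 genes. ACGTG was found in 21.4% of all windows and in 3 of the 30 genes, namely SFRP4, WNT3A and WNT8A. AXIN2, DKK2, DKK3, DKK4, FZD2, FZD3, FZD6, FZD7, FZD10, LRP6, SFRP1, WNT7B, WNT10B, WNT11 and ZNRF3 were the 15 genes without an entry.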

How the data were processed

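RNA-Seq was performed on 8 BEAS-2B libraries, 2 biological replicates per group, grouped by the sample labels. Libraries were made with the TruSeq RNA kit. The authors aligned reads to hg19 with STAR 2.4, per the submitters' processing notes, removed reads with several alignments and deposited read counts per RefSeq gene, which were obtained with BioWardrobe. The deposited RPKM values were also obtained with BioWardrobe, and both cover all exons of the listed transcripts. For ROR1, which has more than 1 listed transcript, RPKM was not in fixed proportion to the share of reads. Whether strand was used was not given in the sources used here.

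The deposited counts were tested in R 4.3.3 with DESeq2 1.42.0 (size factors from the median of ratios, Wald tests taken as two-sided, its own filter on low means, and Benjamini-Hochberg adjustment over all genes tested), with the 4 libraries of each pair of groups in a fit. With 2 libraries per group, an exact two-sided permutation test of 1 gene cannot go below P = 0.333, and the P values rest on a spread shared across genes. Genes without reads in the control group were compared with 3 reads per library. Intervals and limits of detection cover counting error only, since molecules were not tagged. Genes were named if called in at least 1 of the 6 comparisons or if a group mean reached 1 RPKM, and other pathway genes if called in Ni-W or HCl3 against UT with such a mean. The genes, lists and tests were chosen with earlier results of these data known. Alternatives were edgeR 4.0.16, TMM size factors, a minimum mean count of 10, a fit of all 8 libraries, no fold threshold or 2-fold, the repeat suffix of the labels as a replicate block, removal of trends with GC content and length, by itself or together with that block (GC content was known for all 45 genes and 98.78% of expressed genes), and each library left out. On simulated counts for Ni-W against UT (25411 genes), DESeq2 recovered 100 of 100 genes changed 4-fold and 97 of 100 changed 2-fold with 0 false calls, edgeR 100 and 100 with 4, and DESeq2 with the replicate block 100 and 91 with 0. With a GC trend planted in the simulated counts, DESeq2 recovered 100 and 70 with 3830 false calls, and once the trend was removed 100 and 96 with 1. The changed genes were drawn from those with a mean count of at least 100. All genes shared 1 fixed spread, and the slope of the GC trend was set by hand. The recovery therefore does not cover genes with few reads, such as WNT6 and WNT9A, or the spread of these libraries. Promoters came from RefSeq (GRCh38.p14), and figures were drawn with matplotlib 3.10.9. Chromatin data and cells examined soon after wash-out were not analysed here. A further marker gene is not reported here.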

Additional observations from a re-analysis of the deposited data

Results flagged for a closer look

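The change against UT differed between Ni-W and HCl3 for 4 genes by the direct DESeq2 comparison of HCl3 with Ni-W, in which the shared UT libraries drop out. WNT5B was 1.67 higher in HCl3 on the log2 scale, after being called lower than UT in Ni-W and not called in HCl3, and both HCl3 libraries (9.98 and 10.7 RPKM) were above both Ni-W libraries (3.24 and 3.15). WNT10A was 0.96 higher in HCl3, after a rise in both groups. WNT7B was 0.85 higher in HCl3, and both of its HCl3 libraries stood above both Ni-W libraries. SFRP1 differed by -0.77, lower in HCl3 than in Ni-W after a rise in both. The WNT10A and WNT7B differences were lost when single libraries were left out, and those of WNT5B and SFRP1 were not. Experiment, clone and group cannot be told apart here.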

How the results depend on the processing

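Of 52 calls of WNT genes over the 6 comparisons, 21 were kept under every alternative in which the gene was tested, 0 were reversed, 8 were lost under the 2-fold threshold alone and 20 were lost when a library was left out. Counts are given in the order Ni-E, Ni-W and HCl3 against UT, Ni-W and HCl3 against Ni-E, and HCl3 against Ni-W, where the reported counts were 2, 16, 10, 12, 8 and 4. At 2-fold they were 1, 8, 5, 7, 7 and 1. With no fold threshold they were 3, 18, 15, 14, 13 and 7. With the replicate block they were 1, 15, 8, 11, 8 and 3, and with the block and GC and length trends removed 0, 11, 8, 11, 8 and 2. Leaving out 1 library gave 0 to 1, 9 to 14, 6 to 9, 9 to 12, 7 to 9 and 2 to 3. The counts of 0 in Ni-E against UT came from DESeq2, with 5 genes at an unadjusted P value under 0.05 in the block fit with trends removed and 2 to 3 without a library, where edgeR on all 4 libraries called 2. Counts with edgeR, TMM size factors, the minimum mean count and the fit of all 8 libraries stayed within 1.5 times the reported ones. Over all genes tested, the reported calls numbered 840, 2484, 2333, 3276, 2734 and 713. They were 491, 2134, 1779, 2748, 2290 and 455 with the block, and 403, 2198, 1863, 2501, 2248 and 434 with trends removed too. Leaving out a library also lowered the calls over all genes, except in HCl3 against Ni-E without Ni-E replicate 2. No count over all genes was made at 2-fold or with no fold threshold.

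The repeat suffix is not stated to pair libraries across groups. The deviations of same-suffix libraries correlated with an r between -0.159 and 0.222 over the 6 comparisons, so the replicate block is given as an alternative only. Log2 fold changes over expressed genes rose with GC content in Ni-E (Spearman's rho = 0.393) and HCl3 (0.281) against UT, with rho = 0.0473 in Ni-W, -0.176 in Ni-W and 0.00576 in HCl3 against Ni-E, and 0.380 in HCl3 against Ni-W. Removing the GC and length trends also shifted the log2 fold changes of all genes tested. The median shift was -0.0878 in Ni-W and -0.0806 in HCl3 against UT, and -0.0352 and -0.0518 against Ni-E. The values given without these trends include this shift. The cause of the lost calls was not tested. Genes with few reads limit the set, since 14 of the 45 never exceeded 3 reads in any library.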
